A study of Mus musculus with 4 samples.

Results

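The genes described here encode 39 enzymes, transporters and kinases of glucose, glycogen and creatine metabolism in the mouse embryo. They were found by name on the arrays: a non-control probe had to carry the gene's symbol in the scanner files (Pkm2 was accepted for Pkm), and, of several probes, the brightest by mean over the arrays stood for the gene. The 39 genes are part of 26764 genes with a symbol on the arrays. All 39 gave a signal well above background in at least 1 tissue and 33 did so in all 4, against 18454 and 14677 of the 26764 genes. The 6 others were Fbp2, Eno2, Pdk4, Phkg1, Ckm and Ckmt2.

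The study measured RNA from 4 dissected tissues of ICR mice, an outbred stock, with 1 single-colour Agilent array for each tissue. They were the medial mandibular arch of E9.5 embryos (MMA, pooled from 12), the E11.5 lateral lingual swellings (LLS, pooled from 4), the lateral part of the E11.5 mandibular arch (LMA, pooled from 4) and the medial tongue of E14.5 embryos (T, pooled from 4). The embryos carried no genetic change and received no treatment that the labels name, and the pooled tissues were not sorted into cell types. The design names ROKU, a method that looks for genes specific to 1 tissue.

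Each tissue was 1 pool on 1 array, so there were no replicates, no test between tissues was possible, and no difference has a replicate check. Values below are the processed signal of a probe, an arbitrary intensity, or differences of log2 signal after the 75th percentile of each array was subtracted. That percentile was 422 in MMA, 456 in LLS and 507 in LMA, then 491 in T. A difference of 1 is 2-fold, and counts of higher and lower genes below are at 2-fold or more. Among 171 probes printed 10 times on each array, the SD of a single-spot difference lay between 0.045 and 0.054, which covers spot error and not differences between pools. Where a probe was not well above background in 1 tissue, the value is a bound, computed against the lowest signal well above background on that array (between 20.1 and 26.7), and is given as at least that size. In bulk tissue, fewer cells of a type and less RNA per cell cannot be told apart. All 15 skeletal muscle markers were well above background in T, and their summed signal was 1015 in MMA, 9876 in LLS and 32572 in LMA, then 650920 in T. The extraction text of the labels speaks of another tissue, the cerebellum, and 3 to 4 of 8 cerebellar markers were well above background on each array. Of all 26764 genes, between 15747 and 17155 were. Among the cerebellar markers Pcp2 was uneven, with 46.7 in MMA, 584 in LLS and 1560 in LMA, then 43.2 in T.

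Glycolysis breaks glucose down to pyruvate in the cytosol, and lactate dehydrogenase turns pyruvate into lactate while pyruvate dehydrogenase, held back by its kinases, commits it to the mitochondria. Several steps are encoded by more than 1 gene, with a form found in most cells and another typical of skeletal muscle. Muscle also stores glucose as glycogen, which glycogen phosphorylase breaks down, and buffers ATP through the creatine kinases.

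**Figure D1:**
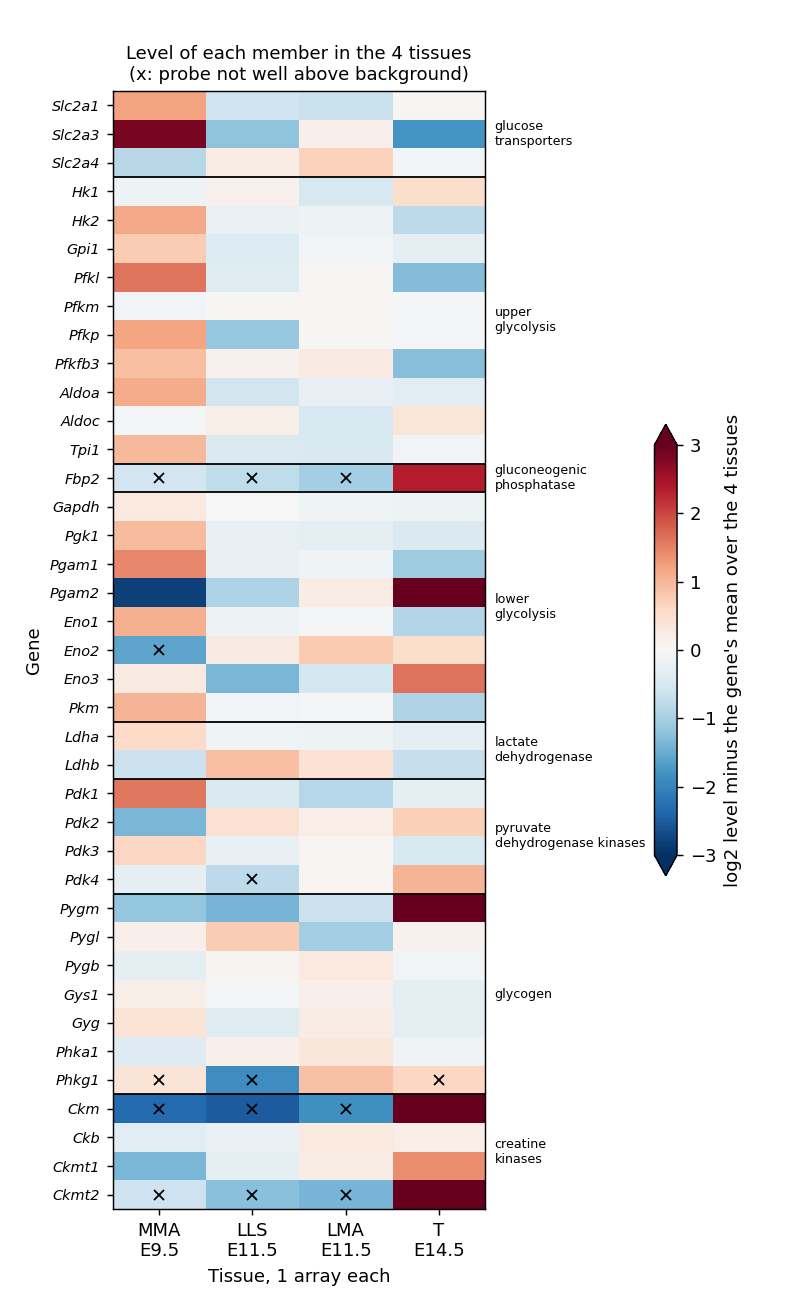
Level of each gene in the 4 tissues, as log2 level minus the mean of the gene over the 4 tissues, with colours capped at 3 in each direction, rows grouped by role and crosses marking probes not well above background. Among the 29 genes that are not muscle isoforms, 19 are highest in the MMA column, whereas Pgam2, Eno3, Pygm, Ckm, Ckmt1 and Ckmt2 are highest in the T column.

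The E11.5 tissues were set against the E9.5 arch to ask how the 39 genes differed between the early arch and the later arch and tongue swellings. Genes of the common glycolytic route were lower at E11.5, from the glucose transporters Slc2a1 and Slc2a3 through Hk2, Pfkl, Pfkp, Aldoa, Tpi1, Pgk1, Pgam1, Eno1 and Pkm to the pyruvate dehydrogenase kinase Pdk1. In LLS minus MMA, 14 of 35 compared genes were 2-fold or more lower, where 5.59% of all compared genes were, and 6 were 2-fold or more higher, where 9.65% of all genes were. In LMA minus MMA, 13 of 36 were 2-fold or more lower, where 7.17% of all genes were, and 6 were 2-fold or more higher, where 10.5% were. The median difference was -0.69 in LLS minus MMA against -0.06 over all genes, and -0.49 in LMA minus MMA against -0.09. Both comparisons use the same MMA array, so they are not independent of each other.

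The widest difference in LLS minus MMA was in Slc2a3, the gene of the high-affinity glucose transporter GLUT3. Its signal was 9802 in MMA, 631 in LLS and 1811 in LMA, then 453 in T. It was therefore 16.8-fold lower in LLS than in MMA (log2 difference -4.07) and 6.502-fold lower in LMA (-2.70), and a second, dimmer probe gave a bound of -2.81 and a difference of -2.49. Slc2a1, which encodes the basal transporter GLUT1, gave signals of 14542 in MMA, 4471 in LLS and 4745 in LMA, then 7604 in T, so that it was 3.51-fold lower in LLS (-1.81) and 3.68-fold lower in LMA (-1.88). Slc2a4, the insulin-responsive transporter GLUT4 of muscle and fat, lay the other way. Its signals were 918 in MMA, 2080 in LLS and 3178 in LMA, then 1800 in T, with differences of 1.07 in LLS minus MMA and 1.53 in LMA minus MMA. A dimmer Slc2a4 probe gave 0.93, under 2-fold, and 1.57.

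In the upper part of glycolysis, 6 of 10 genes were at least 2-fold lower in LLS than in MMA and 5 of 10 in LMA, and none was 2-fold higher. Hk2, an inducible hexokinase that traps glucose in the cell, had signals of 1936 in MMA, 824 in LLS and 941 in LMA, then 588 in T, and was 2.54-fold lower in LLS than in MMA. By its brightest probe, the hexokinase gene Hk1 differed by 0.29 in LLS minus MMA and by -0.33 in LMA minus MMA. Its other usable probe gave 0.61 and 1.19, the second past 2-fold in the opposite direction. The value of -0.33 turned to 0.11 under quantile normalization and to 0.10 under cyclic loess and in the deposited value table, so its sign is not settled. The 3 phosphofructokinase genes, which encode subunits of the committing step, had different patterns. Pfkl gave 3278 in MMA, 907 in LLS and 1324 in LMA, then 507 in T, a difference of -1.96 in LLS minus MMA. Pfkp gave 818 in MMA, 179 in LLS and 444 in LMA, then 404 in T, a difference of -2.31. Both had their highest signal in MMA. Pfkm, the muscle form, stayed between 2648 and 3490 in all 4 tissues, with differences of 0.12 and 0.13 from MMA. Aldoa, the aldolase of muscle and most other cells, gave 173030 in MMA, 58498 in LLS and 80210 in LMA, then 75021 in T, and was 3.20-fold lower in LLS (-1.68) and 2.59-fold lower in LMA (-1.37). MMA stood apart as the high tissue and the 3 later tissues lay close together. The MMA signal of Tpi1, triosephosphate isomerase, was 43930 and the others 17784 in LLS, 19339 in LMA and 24334 in T, with differences of -1.42 and -1.45. Gpi1, glucose-6-phosphate isomerase, was 2.24-fold lower in LLS than in MMA, and its difference in LMA, -0.84, was under 2-fold. Pfkfb3, which makes an activator of phosphofructokinase, differed by -0.78 and -0.66, and Aldoc, the aldolase of brain, by 0.22 and -0.42.

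In the lower part of glycolysis, 5 of 8 genes were at least 2-fold lower in LLS than in MMA and 4 of 8 in LMA. Pgam1, the phosphoglycerate mutase of most tissues, had signals of 73276 in MMA, 25004 in LLS and 29829 in LMA, then 15112 in T. Its probe was printed 10 times on each array, and the difference was -1.66 ± 0.049 in LLS minus MMA (SD of single-spot differences, 10 spots). Pgk1, phosphoglycerate kinase, gave 165970 in MMA, 80339 in LLS and 84992 in LMA, then 73686 in T, with differences of -1.16 and -1.23. Pkm, pyruvate kinase of muscle and embryo, gave 96551, 48077, 55268 and 29616 in the same order, with differences of -1.12 and -1.07. Eno1, the common enolase, gave 85863, 39732, 48117 and 26107 (-1.22 and -1.10). MMA was the high and T the low tissue for all 4 of these genes. The brightest Eno1 probe matched 45 of 45 and 56 of 57 aligned bases of probes for the near-identical copy Eno1b, so the signal may come from both and is uncertain. After quantile normalization, cyclic loess normalization and in the deposited value table, Pgk1, Eno1 and Pkm were under 2-fold in both comparisons, as were Gpi1 in LLS minus MMA and Aldoa in LMA minus MMA, with no change of sign.

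Several isoforms had the opposite direction. Pgam2, the muscle phosphoglycerate mutase, gave 133 in MMA, 531 in LLS and 1291 in LMA, then 12248 in T, which put it 3.70-fold higher in LLS than in MMA and 8.10-fold higher in LMA. Skeletal muscle markers differed in the same direction, with 12 of 14 at least 2-fold higher in LLS and 14 of 15 in LMA, and their part in the Pgam2 and Slc2a4 values was not tested. Eno2, the neuronal enolase, was not well above background in MMA and gave 82.7 in LLS and 132 in LMA, then 106 in T. Against MMA it was at least 3.45-fold higher in LLS, and for LMA at least 4.93-fold higher. Under normexp, another background correction, which damps dim signals with an added offset of 50, the log2 differences were 0.67 and 0.97, both under 2-fold. The summed signal of 10 neuronal markers was 9806 in MMA, 11267 in LLS and 14196 in LMA, then 14039 in T, and most of the MMA sum came from Gap43 and Snap25. Of the 10 markers, 8 were higher in LLS than in MMA and 4 at least 2-fold (Nefm at least 25.2-fold, Dcx 14.9-fold, Nefl 4.60-fold and Tubb3 2.14-fold), and 8 were higher in LMA, 3 of them at least 2-fold. Their part in the Eno2 values was not tested. Eno3, the muscle enolase, did not go with Pgam2 at this step, since its signal of 4892 in MMA was above the 1706 in LLS (-1.63) and the 3367 in LMA (-0.80).

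At the branch point after pyruvate, the isoforms of both enzyme families divided. Ldha, whose subunit is known for the pyruvate-to-lactate direction, gave 92842 in MMA, 62393 in LLS and 67571 in LMA, then 59470 in T, with differences of -0.69 and -0.72. Ldhb, the subunit typical of oxidative tissue, gave 11154, 35450, 28380 and 12657, and was 2.94-fold higher in LLS than in MMA (1.56) and 2.12-fold higher in LMA (1.08). Pdk1, a pyruvate dehydrogenase kinase known as a target of hypoxia signalling, gave 6507 in MMA, 1742 in LLS and 1432 in LMA, then 2072 in T, and was 4.04-fold lower in LLS and 5.46-fold lower in LMA. Its other probes gave differences from -2.02 to -0.14 in LLS minus MMA and from -2.45 to -0.38 in LMA minus MMA. Some of these were under 2-fold. Pdk2, its widely expressed relative, gave 76.4, 297, 276 and 378 in the same order, and was 3.59-fold higher in LLS and 3.003-fold higher in LMA. Pdk1 and Pdk2 thus stood apart in opposite directions on the same arrays. Pdk3 differed by -0.83 and -0.55, and Pdk4, a kinase of fasting muscle and heart, was dim throughout, with signals of 24.5 in MMA, 19.0 in LLS (not well above background), 37.9 in LMA and 70.6 in T.

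Of the glycogen genes, 0 of 6 compared were at least 2-fold apart in LLS minus MMA, where 15.2% of all genes were, and 1 of 7 in LMA minus MMA, where 17.7% were. That gene was Pygl, the liver form of glycogen phosphorylase, which was 2.31-fold lower in LMA than in MMA. Gys1, glycogen synthase of muscle and other tissues, differed by -0.22 and -0.02, Gyg, the glycogenin primer, by -0.76 and -0.18, and Pygb, the brain phosphorylase, by 0.38 and 0.59. Of the creatine kinases, Ckmt1, the ubiquitous mitochondrial form, was 2.14-fold higher in LLS than in MMA and 2.998-fold higher in LMA, while Ckb, the brain form, differed by 0.11 and 0.61.

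**Figure D2:**
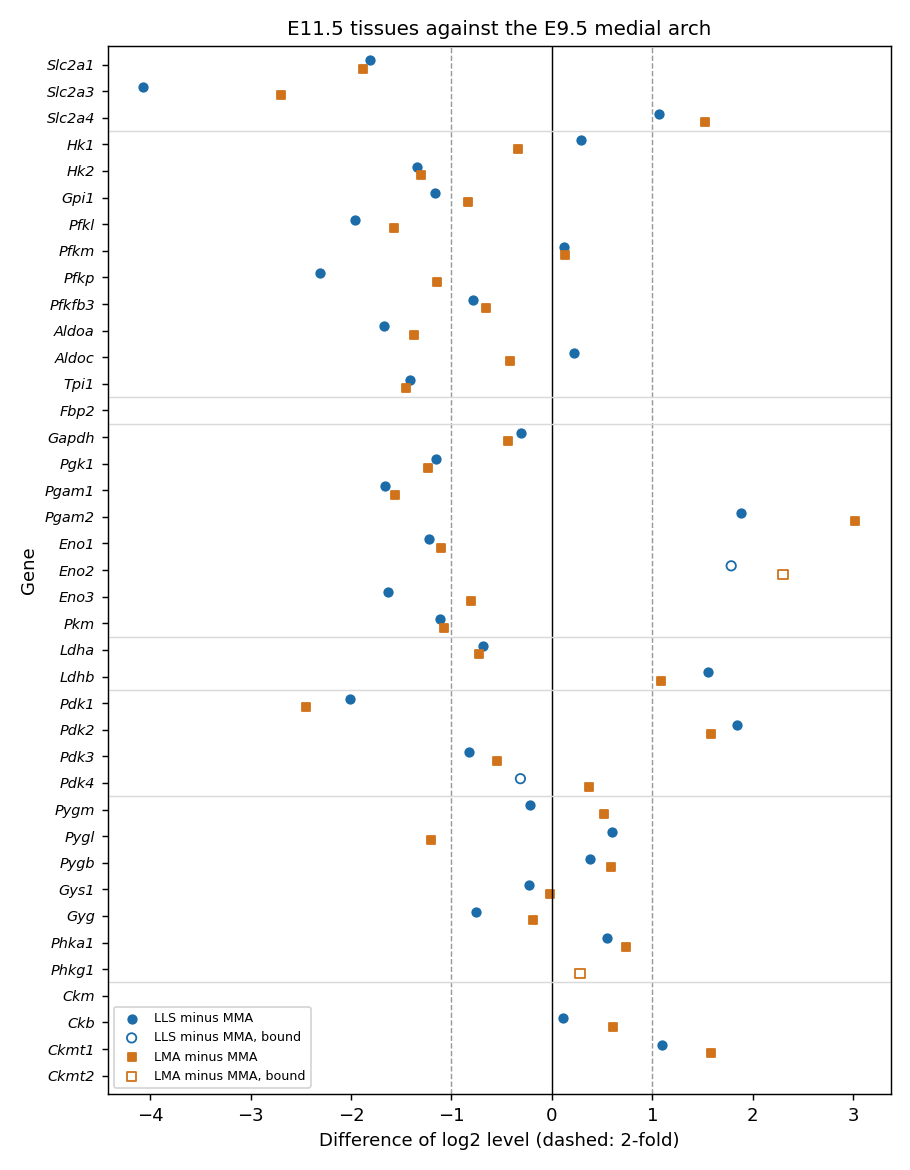
Difference of log2 level between each E11.5 tissue and the E9.5 medial arch for the 39 genes, with circles for LLS minus MMA, squares for LMA minus MMA, open symbols for bounds, dashed lines at 2-fold and no symbol where neither tissue was well above background. Slc2a3 lies farthest to the left at -4.07 and -2.70, and Pgam2 farthest to the right at 1.89 and 3.02.

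Cell type markers also differed between these arrays. Macrophage markers summed to 730 in MMA, 1952 in LLS and 2931 in LMA, endothelial markers to 7956, 4915 and 10944, and epithelial markers to 57460, 41471 and 13172. In LLS minus MMA, 6 of 8 compared macrophage markers were at least 2-fold higher and 3 of 8 endothelial markers at least 2-fold lower. The epithelial markers did not move together there: Krt18 and Krt8, which gave most of the MMA sum, were lower in LLS, while 4 of 9 were at least 2-fold higher (Krt5 65.1-fold, Krt15 18.2-fold, Grhl3 12.4-fold and Cdh1 2.18-fold), and the median was 0.48. In LMA minus MMA, 7 of 8 macrophage markers were at least 2-fold higher, and of 9 epithelial markers 2 were higher and 4 lower by as much. Primitive erythroid markers, which come from blood in the tissue, summed to 467770, 412260 and 418450. The part of these cell types in the values of the metabolic genes was not tested.

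A further list held 17 hypoxia-responsive genes outside glycolysis. In LLS minus MMA, 1 of 17 was above and 1 below the 2-fold line, where 9.65% and 5.59% of all genes were. The median was -0.25 against -0.06 over all genes. In LMA minus MMA, 1 was above and 2 were below, where 10.5% and 7.17% of all genes were, and the median was -0.18 against -0.09. The part of hypoxia in the values of the metabolic genes was not tested. Bnip3, a mitophagy gene known to respond to hypoxia, gave 11804 in MMA, 5371 in LLS and 4993 in LMA (-1.25 and -1.51), and Ddit4, an inhibitor of mTOR signalling, gave 1466, 3299 and 3231 (1.06 and 0.88).

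Another list held 52 other genes of glycolysis, glycogen and phosphagen metabolism. In LLS minus MMA, 5 of 44 compared genes were 2-fold or more higher and 6 lower, where 9.65% and 5.59% of all genes were. The median was 0.00. In LMA minus MMA, 4 of 44 were higher and 7 lower, where 10.5% and 7.17% of all genes were, and the median was -0.01. Slc16a3 and Slc16a1, genes of lactate transporters, were among those lower at E11.5. Slc16a7, of the same family, differed by -0.94 in LLS minus MMA and 0.29 in LMA minus MMA. Slc16a3, the lactate exporter MCT4, gave 15188 in MMA, 1469 in LLS and 2285 in LMA, then 629 in T, with differences of -3.48 and -2.997. Slc16a1, the transporter MCT1, gave 4377, 1229, 1411 and 1469, with differences of -1.94 and -1.90. Mpc1, a subunit of the mitochondrial pyruvate carrier, lay the other way, with 1853 in MMA, 5365 in LLS and 4488 in LMA, then 10720 in T (1.42 and 1.01).

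The promoters of 3 of the genes with lower values at E11.5 are printed to show the matches behind the shares given next. Each holds more than 1 match, and Ldha was under 2-fold lower by its brightest probe. The 5-base core counted is known from hypoxia response elements and was searched on both strands as ACGTG or GCGTG, in the 250 bases before each RefSeq transcription start (GRCm38.p6, strand of the gene). In capitals are the matches in the promoters of Pgk1 (chrX:106186850-106187099), Ldha (chr7:46845554-46845803) and Pfkp (chr13:6648772-6649021).
Pgk1: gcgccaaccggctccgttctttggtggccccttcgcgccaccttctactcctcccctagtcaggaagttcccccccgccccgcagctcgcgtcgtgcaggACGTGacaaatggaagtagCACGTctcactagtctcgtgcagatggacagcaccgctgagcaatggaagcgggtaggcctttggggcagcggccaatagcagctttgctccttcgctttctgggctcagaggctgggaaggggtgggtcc
Ldha: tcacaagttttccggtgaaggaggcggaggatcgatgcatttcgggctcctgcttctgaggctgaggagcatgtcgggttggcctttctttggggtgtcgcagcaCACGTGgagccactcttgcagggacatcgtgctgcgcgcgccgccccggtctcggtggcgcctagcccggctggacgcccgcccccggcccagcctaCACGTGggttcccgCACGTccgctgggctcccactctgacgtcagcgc
Pfkp: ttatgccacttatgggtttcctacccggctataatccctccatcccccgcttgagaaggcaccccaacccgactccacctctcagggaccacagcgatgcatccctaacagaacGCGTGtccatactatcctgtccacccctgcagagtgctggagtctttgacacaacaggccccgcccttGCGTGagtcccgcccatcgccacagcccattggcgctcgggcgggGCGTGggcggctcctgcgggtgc

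Of 39 genes, 37 matched a promoter in the RefSeq table, with 52 promoters, since some genes have several starts whose windows can overlap. Slc2a3 and Slc2a4 had no entry. ACGTG or GCGTG stood in 28 of the 40 promoters of members other than the muscle isoforms (70.0%), in 8 of the 12 promoters of muscle isoforms (66.7%) and in 38.6% of all 32851 promoters. ACGTG alone stood in 35.0%, 33.3% and 16.6%. CACGTG, as printed for Ldha, counts once on each strand. The mean GC content of these windows was 60.4% for the other members, 54.3% for the muscle isoforms and 53.2% for all promoters, and the shares were not matched on it. A match of these letters is a description and not a bound site.

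The E11.5 tissues were compared with each other to ask how the tongue swellings and the lateral arch of the same stage differed. Few of the 39 genes stood apart. In LLS minus LMA, 1 of 36 compared genes was 2-fold or more higher, where 3.57% of all genes were, and 3 were 2-fold or more lower, where 2.88% of all genes were. The median difference was -0.20 against 0.01 over all genes. Pygl was the gene higher in LLS, with signals of 1014 in MMA, 1656 in LLS and 527 in LMA, then 1163 in T, so that LMA was the low tissue (LLS 3.49-fold higher, log2 difference 1.80). Slc2a3 was 2.58-fold lower in LLS than in LMA, Pfkp 2.23-fold lower and Pgam2 2.19-fold lower. Pfkp was under 2-fold with normexp (-0.88). The dimmer Slc2a3 probe gave a bound of -0.32, under 2-fold.

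The 10 isoforms typical of skeletal muscle (Pfkm, Pgam2, Eno3, Pygm, Phka1, Phkg1, Fbp2, Ckm, Ckmt2 and Slc2a4) were looked at as a group in this comparison. The 6 well above background in both tissues were all lower in LLS than in LMA, with differences between -1.13 and -0.02, and Pgam2 alone was past 2-fold. Phkg1 was well above background in LMA and not in LLS, so it could only be lower, and the other 3 were not compared. The difference of -0.02 was that of Pfkm, smaller than the single-spot SD of 0.046. A lower value in LLS was also found in 18 of the 29 members that are not muscle isoforms. Over all genes it was found in 8573 of 17546. Skeletal muscle markers had the same sign, with 15 of 15 lower in LLS, 12 of them at least 2-fold, and a median of -1.52. Endothelial markers were also lower in LLS, 5 of 8 at least 2-fold, and epithelial markers higher, 6 of 9 at least 2-fold, and the part of these cells in the values was not tested.

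The E14.5 tongue was compared with both E11.5 tissues, and here the muscle isoforms led. The muscle creatine kinase gene Ckm, the muscle glycogen phosphorylase gene Pygm and Pgam2 were the genes with the widest differences, from 9.80-fold to at least 149-fold, and Eno3 and Ckmt2 came next in both comparisons. In T minus LLS, 8 of 38 compared genes were 2-fold or more higher, where 12.6% of all genes were, and 2 were lower by as much, where 6.03% were. In T minus LMA, 9 of 39 were 2-fold or more higher, where 13.8% of all genes were, and 4 were lower by as much, where 7.26% were. Both comparisons use the same T array. Under cyclic loess normalization the share of higher genes among all genes past 2-fold in T minus LMA was 75.6% in place of 65.6%. That comparison then had 11 of the 39 genes higher and 4 lower, where 16.6% and 5.33% of all genes were.

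The 39 genes divided by isoform. Of the 10 muscle isoforms, 5 of 9 compared were at least 2-fold higher in T than in LLS and 6 of 10 higher than in LMA, and 0 were 2-fold lower in either. Ckm, Ckmt2 and Fbp2 were well above background in T alone and so could only be higher, and they make up 2 of those 5 and 3 of those 6. Of the 6 muscle isoforms well above background in both tissues compared, Pgam2, Eno3 and Pygm were at least 2-fold higher in T in each comparison and the 3 others were within 2-fold. Of the 29 others, 3 were 2-fold or more higher and 2 lower in T minus LLS, and 3 higher and 4 lower in T minus LMA, their medians being -0.15 and -0.16. The sum of the skeletal muscle markers differed between these arrays as well, with 15 of 15 markers at least 2-fold higher in T than in LLS (median 6.58) and 14 of 15 higher than in LMA (median 4.92), and the part of muscle cell number in the isoform values was not tested. Cardiac markers summed to 1451 in LLS, 2229 in LMA and 19665 in T. Of these 7 markers, 3 were at least 2-fold higher in T than in LLS and 1 lower by as much. Myl3, which slow skeletal muscle also expresses, gave 15277 of the T sum and was 80.8-fold higher than in LLS, Nkx2-5 gave 2273 (3.02-fold) and Myl2, also expressed in slow skeletal muscle, gave 1216 (at least 53.0-fold). Myh6 gave 684 (1.76-fold), Myl7 138 (1.49-fold), Tnni3 46.7 (lower by 1.19 on the log2 scale) and Nppa 30.01. The part of cardiac cells in the isoform values was not tested.

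Ckm, which regenerates ATP from phosphocreatine at the myofibrils, was not well above background in MMA (4.81), LLS (4.63) or LMA (8.20) and gave 2908 in T. It was at least 127-fold higher in T than in LLS and at least 149-fold higher than in LMA. Ckmt2, the mitochondrial creatine kinase of striated muscle, likewise was not well above background in the 3 earlier tissues, with signals of 6.71, 4.64 and 4.69, and gave 117 in T. That made it at least 5.09-fold higher than in LLS and at least 6.005-fold higher than in LMA. Ckmt1 was well above background in all 4 tissues, with 712 in MMA, 1645 in LLS and 2566 in LMA, then 5619 in T, and its other probe, with 58.9, 717, 1463 and 4089, gave the same order. Ckb ranged from 362 to 663, with differences of 0.40 in T minus LLS and -0.10 in T minus LMA.

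Creatine kinase genes are alike in sequence, and the probe of Ckm (mm9, chr7:20002222-20004829, 60 bases spread over 2608, so that it crosses at least 1 intron) is printed beside the dimmer Ckb probe most like it (mm9, chr12:112908459-112909105, minus strand), both from the scanner files. Capitals mark aligned bases at which they differ, 11 of 56.
Ckm: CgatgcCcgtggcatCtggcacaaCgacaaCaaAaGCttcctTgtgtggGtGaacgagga
Ckb: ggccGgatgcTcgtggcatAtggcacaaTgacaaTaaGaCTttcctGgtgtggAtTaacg

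The signals of that Ckb probe were 188 in MMA, 234 in LLS and 428 in LMA, then 311 in T, so that this probe was well measured in the 3 tissues where the Ckm probe stayed below 10. An annotation of build mm9 was not used here, so exons and untranslated regions of the probes are not given.

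Pygm, which releases glucose from muscle glycogen, gave 56.5 in MMA, 52.4 in LLS and 97.0 in LMA, then 1355 in T. It was 24.02-fold higher in T than in LLS and 14.4-fold higher than in LMA, and a second probe gave a bound of 4.40 and a difference of 3.55 against 4.59 and 3.85. Pgam2, with the 4 signals given above, was 21.4-fold higher in T than in LLS (4.42) and 9.80-fold higher than in LMA (3.29), so that MMA was the lowest and T the highest tissue. Eno3 gave 4892 in MMA, 1706 in LLS and 3367 in LMA, then 14560 in T, and was 7.93-fold higher than in LLS and 4.47-fold higher than in LMA. Fbp2, the muscle fructose bisphosphatase, was well above background only in T, at 41.9, and was at least 1.83-fold higher than in LLS and at least 2.15-fold higher than in LMA. With normexp these log2 differences were 0.32 and 0.49.

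The other muscle isoforms did not share this pattern. Pfkm differed by -0.07 and -0.09, Phka1, the muscle alpha subunit of phosphorylase kinase, by -0.27 and -0.46, and Slc2a4 by -0.32 and -0.77. Phkg1, the catalytic subunit of phosphorylase kinase in muscle, was well above background only in LMA, with a signal of 32.4 there and 26.0 in T. Against LMA, 6 of the muscle isoforms were thus past 2-fold in T, and these 4 were not.

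**Figure D3:**
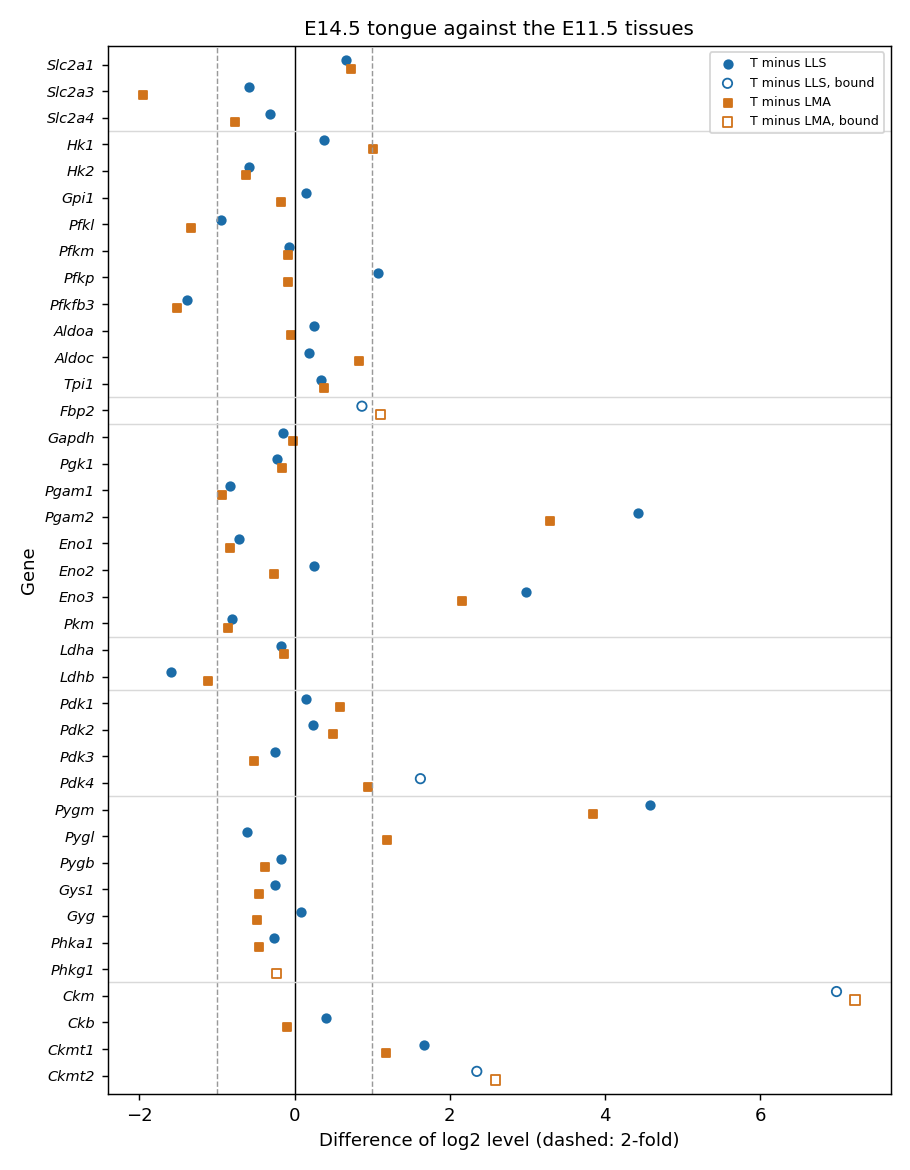
Difference of log2 level between the E14.5 tongue and each E11.5 tissue for the 39 genes, with circles for T minus LLS, squares for T minus LMA, open symbols for bounds and dashed lines at 2-fold. Ckm lies farthest to the right, at bounds of 6.99 and 7.22, followed by Pygm and Pgam2, and most other genes lie within 2-fold of 0.

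Promoters of the 3 genes with the widest differences in T are printed because each holds CAGCTG, an E-box of the kind bound by myogenic regulators, within the 250 bases before the RefSeq start (GRCm38.p6, strand of the gene). Capitals mark it in Ckm (chr7:19410844-19411093), Pygm (chr19:6384158-6384407) and Pgam2 (chr11:5803797-5804046).
Ckm: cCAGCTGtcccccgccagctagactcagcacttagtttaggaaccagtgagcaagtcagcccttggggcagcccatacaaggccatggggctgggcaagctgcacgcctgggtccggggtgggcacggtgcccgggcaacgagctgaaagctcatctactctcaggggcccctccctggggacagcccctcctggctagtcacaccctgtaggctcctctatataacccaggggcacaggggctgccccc
Pygm: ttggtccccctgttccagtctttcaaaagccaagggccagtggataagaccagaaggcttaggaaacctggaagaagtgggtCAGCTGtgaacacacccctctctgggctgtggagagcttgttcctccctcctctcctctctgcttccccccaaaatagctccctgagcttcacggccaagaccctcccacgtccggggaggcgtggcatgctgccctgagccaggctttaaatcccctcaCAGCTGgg
Pgam2: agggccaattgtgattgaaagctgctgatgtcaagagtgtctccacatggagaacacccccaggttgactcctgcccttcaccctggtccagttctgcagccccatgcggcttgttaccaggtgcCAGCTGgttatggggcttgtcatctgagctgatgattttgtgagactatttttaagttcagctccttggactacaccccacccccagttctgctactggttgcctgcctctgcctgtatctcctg

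CAGCTG reads alike on both strands. It stood in 6 of 12 promoters of the muscle isoforms, in 4 of 40 promoters of the other members and in 13.0% of all promoters. The MEF2 and CArG consensus motifs, also known from muscle genes, stood in 0 of 12 and in 0.508% and 1.47% of all promoters, which says only that these letters are not in the windows searched.

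Among the genes that are not muscle isoforms, 3 genes of the lower part of glycolysis had lower values in T that were close to 2-fold. Pgam1 differed by -0.83 ± 0.046 from LLS (SD of single-spot differences, 10 spots) and by -0.93 ± 0.051 from LMA, Pkm by -0.81 and -0.85, and Eno1 by -0.71 and -0.84. These 6 differences were under 2-fold by the brightest probes. Pkm in T minus LMA was just past it after quantile normalization (-1.003) and in the deposited value table (-1.01), another Eno1 probe gave -1.09 and -1.41, and another Pkm probe -1.13 and -1.31. For Pgam and enolase, the common form was thus at its lowest signal of the 4 in T and the muscle form at its highest. Pfkfb3 was 2.62-fold lower in T than in LLS and 2.85-fold lower than in LMA, with signals of 1848 in MMA, 1163 in LLS and 1405 in LMA, then 478 in T. Its other probe, with signals from 21.6 to 72.9, gave bounds of -0.52 and -0.55. Pfkl was 2.53-fold lower in T than in LMA (-1.34) and differed by -0.94 from LLS. A dimmer Pfkl probe gave -0.94 from LMA and -0.49 from LLS, both under 2-fold. Slc2a3 was 3.87-fold lower in T than in LMA, while its dimmer probe gave a bound of -0.10. Pfkp was 2.10-fold higher in T than in LLS (1.07) and differed by -0.09 from LMA. With normexp its difference from LLS was 0.83, under 2-fold, and other Pfkp probes gave 1.34 and -0.10.

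Ldhb was 3.01-fold lower in T than in LLS and 2.17-fold lower than in LMA, so that its T signal, 12657, lay near the 11154 of MMA. Ldha differed by -0.18 and -0.14. Of the pyruvate dehydrogenase kinases, Pdk4 was at least 3.08-fold higher in T than in LLS and 1.92-fold higher than in LMA, while Pdk1, Pdk2 and Pdk3 were within 2-fold in both. With normexp the Pdk4 difference from LLS was 0.59, under 2-fold, and with cyclic loess the difference from LMA was 1.20, past it. Pygl was 2.28-fold higher in T than in LMA and differed by -0.62 from LLS. Slc2a1 differed by 0.66 and 0.73. Hk1 was 2.01-fold higher in T than in LMA by its brightest probe (25446 in MMA, 33624 in LLS and 24246 in LMA, then 47206 in T), whereas its other usable probe gave 866, 1425, 2380 and 1609, lower in T than in LMA by 0.52. The brightest Hk1 probe, too, was under 2-fold after quantile normalization and in the deposited value table (0.92 in both).

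Primitive erythroid markers, the genes of embryonic globins, summed to 412260 in LLS and 418450 in LMA against 44828 in T, and epithelial markers to 41471, 13172 and 296970. All 3 primitive erythroid markers were at least 2-fold lower in T than in each E11.5 tissue, and 3 of 9 epithelial markers were at least 2-fold higher than in LLS and 8 of 9 than in LMA. A separate list of 9 erythroid markers summed to 196020 in LLS, 200880 in LMA and 209190 in T. Of these 9, 6 were at least 2-fold lower in T than in LLS and 5 than in LMA, and 1 was higher in each. That 1 was Hbb-b1 (2.28 and 2.63), while Hba-a1, which gave most of each sum, differed by -0.003 and 0.11. The part of blood and epithelium in the differences of the common glycolytic genes was not tested.

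Of the 52 other genes of the pathways, 9 of 45 compared were 2-fold or more higher and 3 lower in T minus LLS. Of all genes, 12.6% and 6.03% were. In T minus LMA, 11 of 45 were higher and 4 lower, where 13.8% and 7.26% of all genes were. Both creatine synthesis genes were among the higher. Gatm, which makes guanidinoacetate, gave 56.8 in MMA, 99.5 in LLS and 201 in LMA, then 991 in T (3.21 and 2.35), and Gamt, which methylates it to creatine, gave 1231, 1611, 2219 and 5879 (1.76 and 1.45). Ak1, the adenylate kinase of muscle, gave 2494, 1231, 1799 and 10108 (2.93 and 2.54). Ampd1, the AMP deaminase of muscle, was well above background only in T, at 358, and was at least 15.6-fold higher than in LLS. Ppp1r3a, which targets protein phosphatase to muscle glycogen, was at least 4.96-fold higher than in LLS, and its relative Ppp1r3c gave 76.6, 169, 174 and 796 (2.13 and 2.24). Slc16a3 and Pfkfb1 were lower in T, by log2 differences of -1.33 and -1.48 from LLS. Slc16a3 thus had its highest signal in MMA and its lowest in T.

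ROKU's outlier step was then run over all 4 tissues, with at most 1 outlier tissue and at least 2-fold to the nearest other. It called 6 of the 39 genes specifically high in T, where 7.99% of 18454 genes were: Pgam2, Eno3, Pygm, Ckm, Ckmt1 and Ckmt2. Ckm and Ckmt2 were well above background in T alone, so a call could only be high in T for them. ROKU's step called Pfkfb3 specifically low in T, where 2.57% of all genes were. In MMA it called 12 specifically high, where 2.49% of all genes were: Slc2a1, Slc2a3, Hk2, Pfkl, Pfkp, Aldoa, Tpi1, Pgk1, Pgam1, Eno1, Pkm and Pdk1. In a check chosen after seeing the data, 6 of these 12 kept the call after quantile normalization and the same number in the deposited value table, where Slc2a1, Aldoa, Tpi1, Pgk1, Eno1 and Pkm lost it, and 5 did after cyclic loess, where Pfkp lost it too. Slc2a3, Hk2, Pfkl, Pgam1 and Pdk1 kept it under all 3. With the median over all usable probes of a gene, Pfkp, Tpi1, Pgk1 and Pdk1 lost the call and Ldha gained it. Pkm lost it with normexp. Eno2 and Pdk2 were called specifically low in MMA, where 4.19% of all genes were, and Pygl specifically low in LMA, where 0.862% were. Eno2 lost its call with normexp. 0 members were called high in LLS (0.325% of all genes) or in LMA (0.672%), or low in LLS (0.0867%). These calls rest on the same 4 arrays as the pairwise differences and describe them in another form.

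By highest signal after scaling, 19 of the 39 genes peaked in MMA, 2 in LLS and 7 in LMA, then 11 in T. The 48.7% in MMA compare with 37.2% of all genes well above background in at least 1 tissue. The shares in LLS, LMA and T were 5.13%, 17.9% and 28.2%, against 13%, 18.5% and 31.3% of those genes. None of the 10 muscle isoforms peaked in MMA, and 19 of the 29 others did (65.5%). Pgam2 had the widest range over the 4 tissues among genes measured in all of them, 79.3-fold, followed by Slc2a3 with 25.1-fold and Pygm with 24.02-fold. Pfkm had the narrowest, 1.097-fold.

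Other probes of the same genes were compared with the brightest. In LLS minus MMA, the median of the other probes had the same direction in 22 of 22 genes with another usable probe, and 10 of the 13 at least 2-fold by the brightest probe were so by the others too. In LMA minus MMA it was 22 of 23 and 10 of 12, with Hk1 opposite. In the comparisons with T, it was 19 of 22 and 3 of 5 for LLS, with Gpi1, Pgk1 and Gyg opposite, and 21 of 23 and 3 of 7 for LMA, with Hk1 and Pgk1 opposite. The second Pgk1 probe was dim, between 38.1 and 45.3 on all arrays.

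For Gapdh and Ldha, the choice of probe decides how flat the gene looks. Gapdh, glyceraldehyde-3-phosphate dehydrogenase and a common reference gene, gave 122710 in MMA, 107150 in LLS and 109170 in LMA, then 104000 in T by its brightest probe, whose listed mm9 position covers 8 bases only. Its 6 other probes were all lower at E11.5, between -0.94 and -0.76 in LLS minus MMA against -0.31, and between -0.82 and -0.51 in T minus LLS against -0.15. In LMA minus MMA, the brightest probe gave -0.43, which turned to between 0.11 and 0.13 under quantile normalization, cyclic loess and in the deposited value table. One of the other probes gave 136530, 76681, 80722 and 49316. The second Ldha probe gave 10554, 2064, 2507 and 1939, a difference of -2.47 in LLS minus MMA against -0.69 by the brightest. Over all usable probes the Ldha median was -1.58, past 2-fold.

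**Figure D4:**
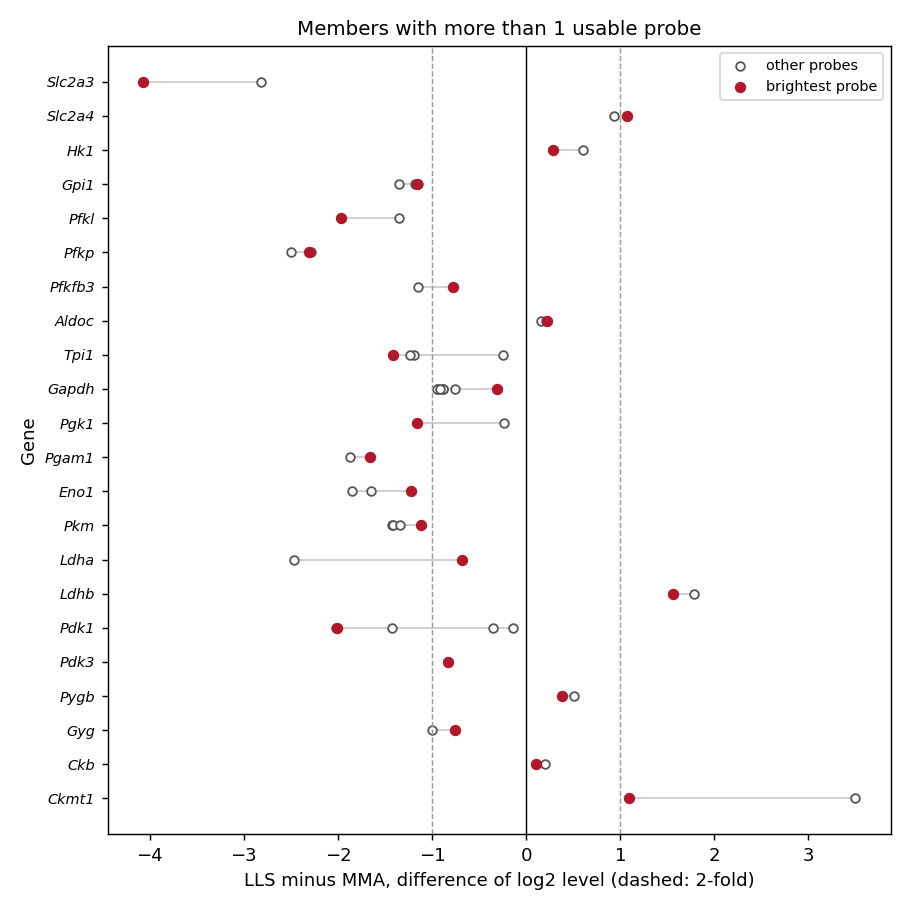
Difference of log2 level, LLS minus MMA, for each usable probe of the members with more than 1, with filled points for the brightest probe, open points for others and dashed lines at 2-fold. Probes of a gene lie on the same side of 0 in each of these genes, and the widest spread is in Ckmt1 (1.095 and 3.49) and Pdk1 (from -2.02 to -0.14).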

How the data were processed

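Intensity values were read from the deposited scanner files; per the file headers the software was Agilent Feature Extraction, version 10.7.1.1 (9.5.1.1 per the submitters' processing notes). Each array had 62976 spots. 59305 were not controls, 57.0% to 62.9% of these were well above background and 0 were saturated. All arrays were on 1 slide. The deposited value table, also intensity, was an alternative.

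Flagged spots were left out and spots of a probe averaged, which left 4 probes without a value. Of 56605 probes, 32928 were named by RefSeq accession, 511 through an older symbol, 12305 by the file's symbol and 87 as members, and 10774 had none. Each array's 75th percentile was subtracted from log2 of the deposited processed signal. Dim values were floored at the lowest signal well above background on the array, unless higher themselves. Pairs in which neither array measured the probe well above background were not compared. Alternatives were quantile and cyclic loess normalization, normexp (offset 50; limma 3.58.1, R 4.3.3), no filter or floor, both tissues well above background, the median of probes and a 4-fold threshold. Other steps used Python 3.11.15 with pandas 2.3.3. The counting was tested on simulated data.

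All 39 members were described, and list genes were named with values where at least 2-fold apart in any of 5 pairs. Members, lists and the naming rule were chosen with earlier results of these data known.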

Additional observations from a re-analysis of the deposited data

How the results depend on the processing

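No paired analysis was possible because each tissue was 1 array, and for the same reason no replicate could be left out. Of 92 counts under the alternatives, 77 stayed within 1.5 times the main count. With probes well above background in both tissues, 5 of 34 genes were past 2-fold upward in T minus LLS. Bounds are left out there by construction, and 9.94% of all genes were past it upward. With the median of probes, 1 of 38 was lower in T minus LLS, where 5.55% of all genes were. At a 4-fold threshold, 5 of 38 genes were higher and 0 lower in T minus LLS (5.42% and 1.08% of all genes). In T minus LMA, 5 of 39 were higher and 0 lower (6.51% and 1.46%). In LLS minus LMA, 0 of 36 were higher and 0 lower (1.06% and 0.416%). In LLS minus MMA, 0 of 35 were higher and 3 lower (3.22% and 0.874%). In LMA minus MMA, 2 of 36 were higher and 2 lower (3.55% and 1.47%). Of 1274 single-gene values, 1228 kept their side of 2-fold, 38 dropped under it and 8 passed it. 0 values past 2-fold changed sign, and 41 under it did, among them Gapdh in LMA minus MMA by its brightest probe. Quantile normalization, cyclic loess and the deposited table each lowered the count of lower genes from 14 to 10 in LLS minus MMA and from 13 to 9 in LMA minus MMA, and the cause was not tested. Cyclic loess shifted the median of all genes by 0.16 in T minus LLS, 0.14 in T minus LMA, 0.12 in LLS minus MMA and 0.13 in LMA minus MMA. Members specific to T, with high and low calls counted together, were 7 as reported and numbered 5 to 8 in the alternatives. Members specifically high in MMA, 12 as reported, numbered 6 after quantile normalization, 5 after cyclic loess, 6 in the deposited table and 9 to 12 in the others, alternatives added after seeing the data.

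The number of arrays limits the precision: pools of the same tissue were not measured, and dim genes (Fbp2, Eno2, Pdk4, Phkg1, Ckmt2) rest on signals near background. Without filter and floor Fbp2 was 3.12 higher in T minus LLS in place of at least 0.87. The deposited table's columns share a maximum of 308667 and correlate with the scanner values at 0.9993 or more, and its normalization is not named.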

Other observations

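Pgm5, which encodes a phosphoglucomutase-related protein of cell adhesion sites in muscle, gave 30.7 in MMA, 1954 in LLS and 2176 in LMA, then 3475 in T. It was 59.0-fold higher in LLS than in MMA and 59.1-fold higher in LMA, the widest differences from MMA among the 52 other pathway genes. Pgm1, the phosphoglucomutase that links glycogen to glycolysis, lay the other way, with 8659, 3081, 7042 and 3259, so that the lateral arch had a signal near that of MMA. Its difference was -1.60 in LLS minus MMA and -1.04 in LLS minus LMA. Ldhc, the lactate dehydrogenase subunit of testis, gave 23.6, 24.6 and 25.0 in the 3 earlier tissues and 88.4 in T, and was 3.34-fold higher in T than in LLS.

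Of the hypoxia-responsive genes, Ndrg1, a stress-response gene of differentiating epithelia, gave 306 in MMA, 377 in LLS and 740 in LMA, then 1475 in T, with a difference of 1.86 in T minus LLS. It was the 1 gene of that list of 17 at least 2-fold higher in T than in LLS.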
